A study of Homo sapiens with 2 samples.

Results

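The p53 target genes MDM2, PPM1D, RRM2B, GADD45A, BTG2, ZMAT3, TP53I3, TP53INP1 and GDF15 were examined in PLC/PRF/5 cells, a human hepatocellular carcinoma line. These 9 genes were chosen by name as long-established targets of the transcription factor p53, out of 27685 genes in the deposited files, and all 9 passed the filter on low values, which asked for 1 TPM or more in one of the libraries. p53's own transcript is not among them and is not described here. JIB-04-treated cells received 6 µM JIB-04, a pan-inhibitor of Jumonji histone demethylases, for 24 h, and control cells received DMSO, the solvent, for 24 h. Each condition had 1 library, and both came from the same line, which carries integrated hepatitis B virus and a missense-mutant p53 as background. The label for the control's treatment reads untreated, but its title and the methods of the study give DMSO.

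p53 is a sequence-specific transcription factor that is held at a low level in unstressed cells because its target MDM2 marks it for degradation. After DNA damage or other stress it is stabilised and raises the transcription of genes that arrest the cell cycle, repair DNA, supply nucleotides or start cell death, together with genes such as MDM2 and PPM1D that switch it off again. Several of these genes, among them GDF15 and GADD45A, are also known to respond to other stress pathways, and many missense mutants of p53 bind its DNA element poorly. Histone lysine demethylases of the Jumonji class, the enzymes that JIB-04 inhibits, remove methyl groups from histones at genes and enhancers.

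RNA from polyadenylated, stranded libraries was estimated at 23721989 aligned fragments with JIB-04 and 28187793 with DMSO. Levels are given as TPM, a length-corrected share of all transcripts in the library, summed over the gene's transcripts, so that a larger share of some genes lowers the share of all others. The log2 ratio was taken on TPM + 1, with JIB-04 over DMSO. With 1 library per condition there was no replicate spread and no test, and each 95% interval is an exact conditional binomial interval on estimated fragments that covers counting error only. The filter left 14450 genes, called the genes described. Among them 865 (5.99%) had a JIB-04 over DMSO ratio of 2 or more, 994 (6.88%) had a ratio of 0.5 or less, and the median log2 ratio was -0.15. After rescaling so that well expressed genes had a median of 0, these counts were 1135 (7.85%) and 627 (4.34%). Of 12 hepatocyte marker genes, 11 with JIB-04 and 12 with DMSO reached a TPM of 1 (summed TPM 6000 with JIB-04 and 9475 with DMSO, and 1874 with JIB-04 and 1779 with DMSO without the keratins KRT8 and KRT18), while the markers of endothelial cells did so in neither library and the leukocyte gene PTPRC was listed at 0 in both. The fibroblast markers were low too, with 2 of 6 reaching a TPM of 1 with JIB-04 and 3 of 6 with DMSO (summed TPM 14.2 with JIB-04 and 22.1 with DMSO), and of the 5 leukocyte markers 2 did so in each library (summed TPM 44.1 with JIB-04 and 63.6 with DMSO). These 2 were LYZ, with 41.9 TPM with JIB-04 and 57.3 TPM with DMSO, and CD14, with 1.37 TPM with JIB-04 and 6.05 TPM with DMSO. Most of the leukocyte sum was thus LYZ.

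The targets did not move as a block. GADD45A and GDF15 were more than 2-fold higher in JIB-04-treated cells, TP53INP1 and TP53I3 were moderately higher, MDM2, BTG2 and PPM1D lay close to equality, and ZMAT3 and RRM2B were lower. In counts, 2 of the 9 genes (22.2%) passed 2-fold upward, beside 5.99% of all genes described, and 0 passed it downward, beside 6.88%. The median log2 ratio of the 9 genes was -0.05, with a lowest value of -0.95 and a highest of 1.36, and 7 of them lay above the median of all genes described. A pair of calls among 9 genes is a small count, and nothing about the targets as a class is read from it.

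**Figure D1:**
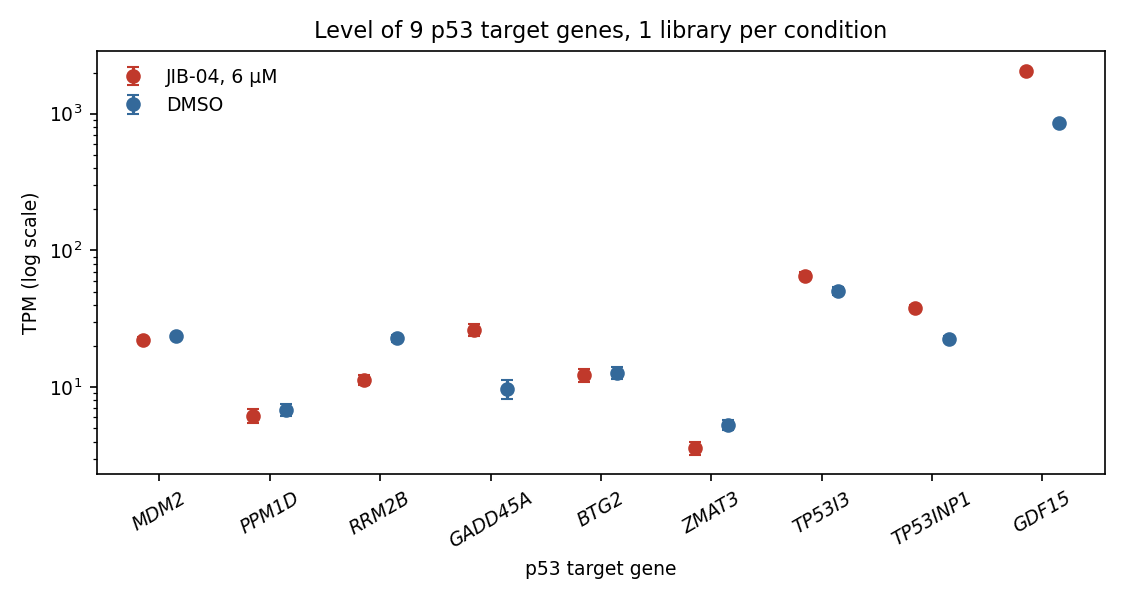
TPM of the 9 p53 target genes on a log axis, with the JIB-04 library to the left of the DMSO library for each gene, and bars for the 95% counting interval of each library. GDF15 stood far above the others in both libraries, at 2063 TPM with JIB-04 and 861 TPM with DMSO.

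**Figure D2:**
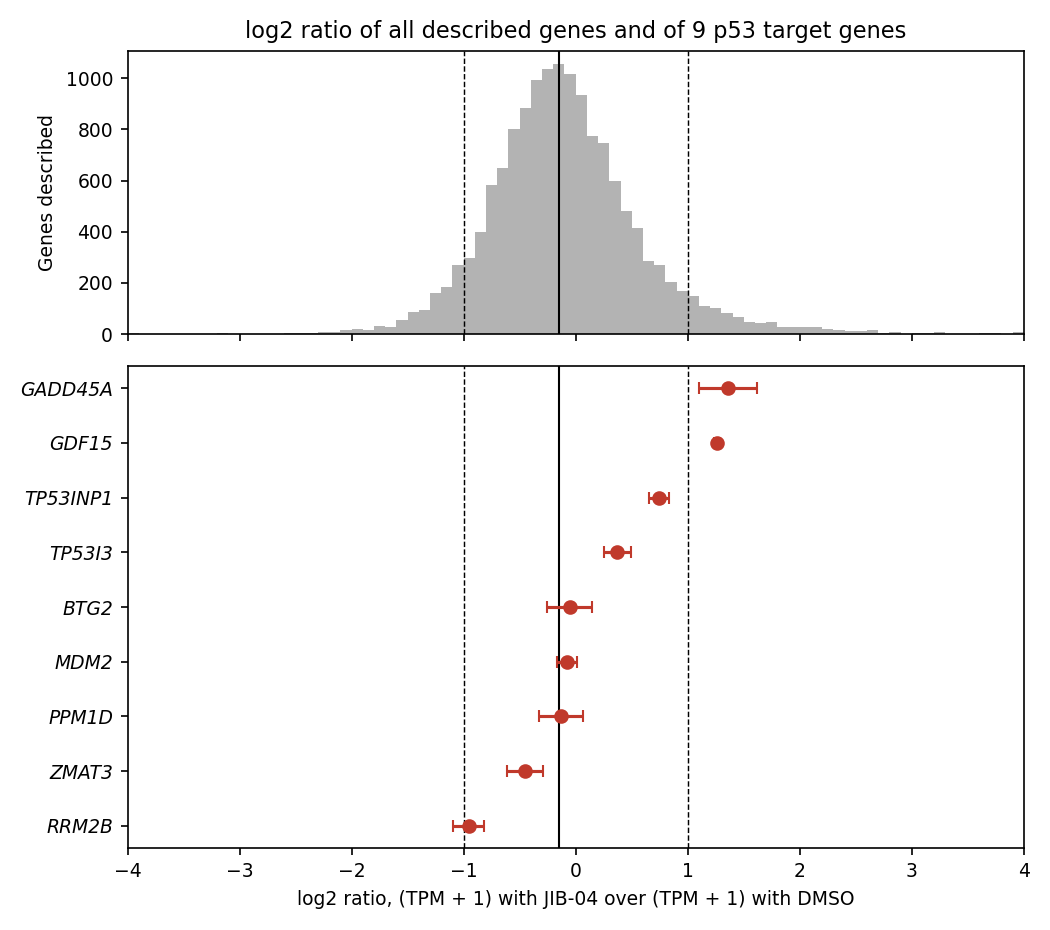
Log2 ratio of JIB-04 over DMSO for all 14450 genes described (upper panel, genes per bin, values beyond 4 in the end bins) and for the 9 p53 target genes (lower panel, points with 95% counting intervals). The solid line marks the median of all genes, -0.15, the dashed lines mark 2-fold, and only GADD45A and GDF15 lay beyond the upper dashed line.

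The order of the levels differed between the libraries. With JIB-04 it ran from GDF15 through TP53I3, TP53INP1, GADD45A, MDM2, BTG2, RRM2B and PPM1D to ZMAT3, and the counting intervals of neighbours overlapped only for BTG2 and RRM2B. With DMSO it ran from GDF15 through TP53I3, MDM2, RRM2B, TP53INP1, BTG2, GADD45A and PPM1D to ZMAT3, and MDM2, RRM2B and TP53INP1 could not be ranked among each other within counting error. GADD45A thus stood above MDM2 with JIB-04 and below BTG2 with DMSO.

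To look at the negative feedback arm, MDM2 and PPM1D were examined first. MDM2 (Entrez 4193, hg19 chr12:69201952-69239324, plus strand) encodes the ubiquitin ligase that targets p53 for degradation. Its TPM was 22.3 with JIB-04 and 23.6 with DMSO, from 1628 estimated fragments with JIB-04 and 2078 with DMSO. The log2 ratio was -0.08 (95% interval -0.17 to 0.01), so that no difference was detectable at this depth, and the interval leaves no room for a 2-fold change in either direction from counting error alone. When the median of well expressed genes was set to 0, which moves all ratios by 0.15, the value for MDM2 was 0.07 instead, so its sign depends on the scaling. MDM4, the paralog of MDM2 that binds p53 without degrading it efficiently by itself, had 5.79 TPM with JIB-04 and 6.59 TPM with DMSO (log2 ratio -0.16, interval -0.30 to -0.03).

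The transcripts of MDM2 were then taken apart, because its transcription is known to begin at a distal promoter or at an internal promoter that carries the p53 response element. In the RefSeq annotation of GRCh38.p14 the starts used here lie 845 bases apart on the plus strand, as they also do in the hg19 annotation of the files. The windows from 250 bases before to 50 bases after each start are shown, since the contrast between them is the basis of the comparison that follows. Capitals mark stretches that match the 20-base p53 consensus, searched by that name on both strands, at 17 or more positions with no gap between its half-sites. The distal window is chr12:68807922-68808221 and the internal window is chr12:68808767-68809066.
MDM2 distal promoter: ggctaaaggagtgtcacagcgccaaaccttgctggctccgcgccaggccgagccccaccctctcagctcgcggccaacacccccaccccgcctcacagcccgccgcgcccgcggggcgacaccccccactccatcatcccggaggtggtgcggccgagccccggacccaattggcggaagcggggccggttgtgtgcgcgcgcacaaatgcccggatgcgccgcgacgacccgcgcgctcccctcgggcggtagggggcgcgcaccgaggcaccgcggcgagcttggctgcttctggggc
MDM2 internal promoter: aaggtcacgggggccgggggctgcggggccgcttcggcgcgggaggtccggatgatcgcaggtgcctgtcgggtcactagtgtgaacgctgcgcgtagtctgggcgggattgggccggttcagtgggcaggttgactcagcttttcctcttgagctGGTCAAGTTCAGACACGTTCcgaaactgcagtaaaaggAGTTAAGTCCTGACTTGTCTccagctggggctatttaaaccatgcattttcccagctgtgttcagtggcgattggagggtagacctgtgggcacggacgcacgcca

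The best match in the distal window reached 15 of 20 positions. The internal window held the stretch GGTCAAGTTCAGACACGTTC, which matched at 18 of 20 positions and lay 94 to 75 bases before the start, and the stretch AGTTAAGTCCTGACTTGTCT, which matched at 17 positions and lay 56 to 37 bases before it. Among 34943 promoter windows of the same length in RefSeq, 5.20% held a match at 17 or more positions and 0.650% one at 18 or more. A match describes letters in the window and does not show binding in these cells.

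The transcripts that begin at the internal start of MDM2 were a minority in both libraries. The 2 annotated transcripts from the distal start summed to 20.0 TPM with JIB-04 and 20.6 TPM with DMSO, which was 89.7% of the gene with JIB-04 and 87.2% with DMSO. The 3 transcripts from the internal start summed to 2.30 TPM with JIB-04 and 3.01 TPM with DMSO, or 10.3% with JIB-04 and 12.8% with DMSO. The exons that only one class of transcript contains gave the more direct value. Coverage of the distal first exon (hg19 chr12:69201952-69202271, 320 bases), scaled so that a library's coverage is expressed in TPM, was 20.0 with JIB-04 and 19.7 with DMSO, from about 62.8 fragments with JIB-04 and 75.2 with DMSO. The internal first exon (hg19 chr12:69202797-69202866, 70 bases) had scaled coverage of 1.35 with JIB-04 and 1.15 with DMSO, which corresponds to only about 0.9 fragments with JIB-04 and 1 with DMSO. Coverage of the internal first exon was low in both libraries, and a difference between JIB-04 and DMSO was not detectable at this depth.

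PPM1D (Entrez 8493, hg19 chr17:58677544-58743640, plus strand) encodes the phosphatase WIP1, which removes activating phosphates from p53 and from the kinases upstream of it. It had 6.14 TPM with JIB-04 and 6.81 TPM with DMSO, and its log2 ratio of -0.13 (-0.32 to 0.06) spanned equality. Among its relatives, the magnesium-dependent phosphatase PPM1L had 1.67 TPM with JIB-04 and 3.38 TPM with DMSO (log2 ratio -0.72), PPM1G and PPM1B had log2 ratios of -0.42 and -0.38, and PPM1A had 0.09. The counting intervals of both feedback genes thus held equality.

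Among the arrest and repair genes, GADD45A and RRM2B lay at opposite ends. GADD45A (Entrez 1647, hg19 chr1:68150860-68154021, plus strand) encodes a small stress-inducible protein that binds PCNA and cyclin-dependent kinase complexes and takes part in growth arrest and repair. It had 26.2 TPM with JIB-04 and 9.63 TPM with DMSO, from 355 estimated fragments with JIB-04 and 158 with DMSO. The ratio was 2.56-fold on TPM + 1, a log2 ratio of 1.36 (1.10 to 1.62), the highest of the 9 genes and at percentile 96.8 of all genes described. Its transcript NM_001924 carried 25.3 TPM with JIB-04 and 9.63 TPM with DMSO. Each of its exon blocks with at least 10 fragments in both libraries was higher by 2.496-fold or more, and the last block (2.69-fold) and the rest of the gene (2.74-fold) gave nearly the same value. Its paralog GADD45B did not share this difference, with 100.9 TPM with JIB-04 and 116.5 TPM with DMSO (log2 ratio -0.21, interval -0.31 to -0.11), and GADD45G was listed at 0 in both libraries.

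RRM2B (Entrez 50484, hg19 chr8:103216729-103251346, minus strand) encodes p53R2, the ribonucleotide reductase subunit that supplies deoxynucleotides for repair and for mitochondrial DNA outside S phase. It had 11.3 TPM with JIB-04 and 22.8 TPM with DMSO, from 540 estimated fragments with JIB-04 and 1336 with DMSO. The log2 ratio was -0.95 (-1.09 to -0.82), the lowest of the 9 genes and at percentile 7.70 of all genes described, just short of the 2-fold line on TPM + 1 and just past it without the pseudocount (ratio 0.495). RRM2, its S-phase paralog, was lower by a similar amount over the whole gene, with 91.4 TPM with JIB-04 and 169.9 TPM with DMSO (log2 ratio -0.89, -0.95 to -0.83). Exon blocks of RRM2 are not given here, so the likeness holds for whole-gene values only.

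The difference in RRM2B was not spread over the gene. Its annotated exons form 9 blocks of overlapping exons, and the last block, of 3785 bases, is shared by all 3 annotated transcripts. Scaled coverage of this last block was 7.22 with JIB-04 and 22.5 with DMSO, from 269 fragments with JIB-04 and 1015 with DMSO, a ratio of 0.3204 (0.279 to 0.367). The 8 blocks before it together had 272 fragments with JIB-04 and 321 with DMSO, a ratio of 1.03 (0.870 to 1.21) after scaling. Block by block these 8 ratios lay between 0.822 and 1.40 with a median of 0.999, so none of them approached the value of the last block.

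Such a gap between the last block and the rest was uncommon but not unique. Over the 7307 genes described with at least 100 fragments in the last block and in the rest in both libraries, the log2 ratio of the last block minus that of the rest had a median of -0.06, with 5% of genes below -0.77 and 5% above 0.33. RRM2B stood at -1.68, and 55 genes (0.753%) lay lower. Among the 1635 of these genes whose last block was at least 3000 bases long, the median was -0.16 and 20 genes (1.22%) lay lower than RRM2B. Of the other p53 targets with enough fragments, TP53INP1 stood at -0.35, MDM2 at -0.35, PPM1D at -0.19, GDF15 at -0.06 and TP53I3 at 0.23. ZMAT3, BTG2 and GADD45A had fewer than 100 fragments in one of the parts and stood at -0.46, -0.05 and -0.03.

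**Figure D3:**
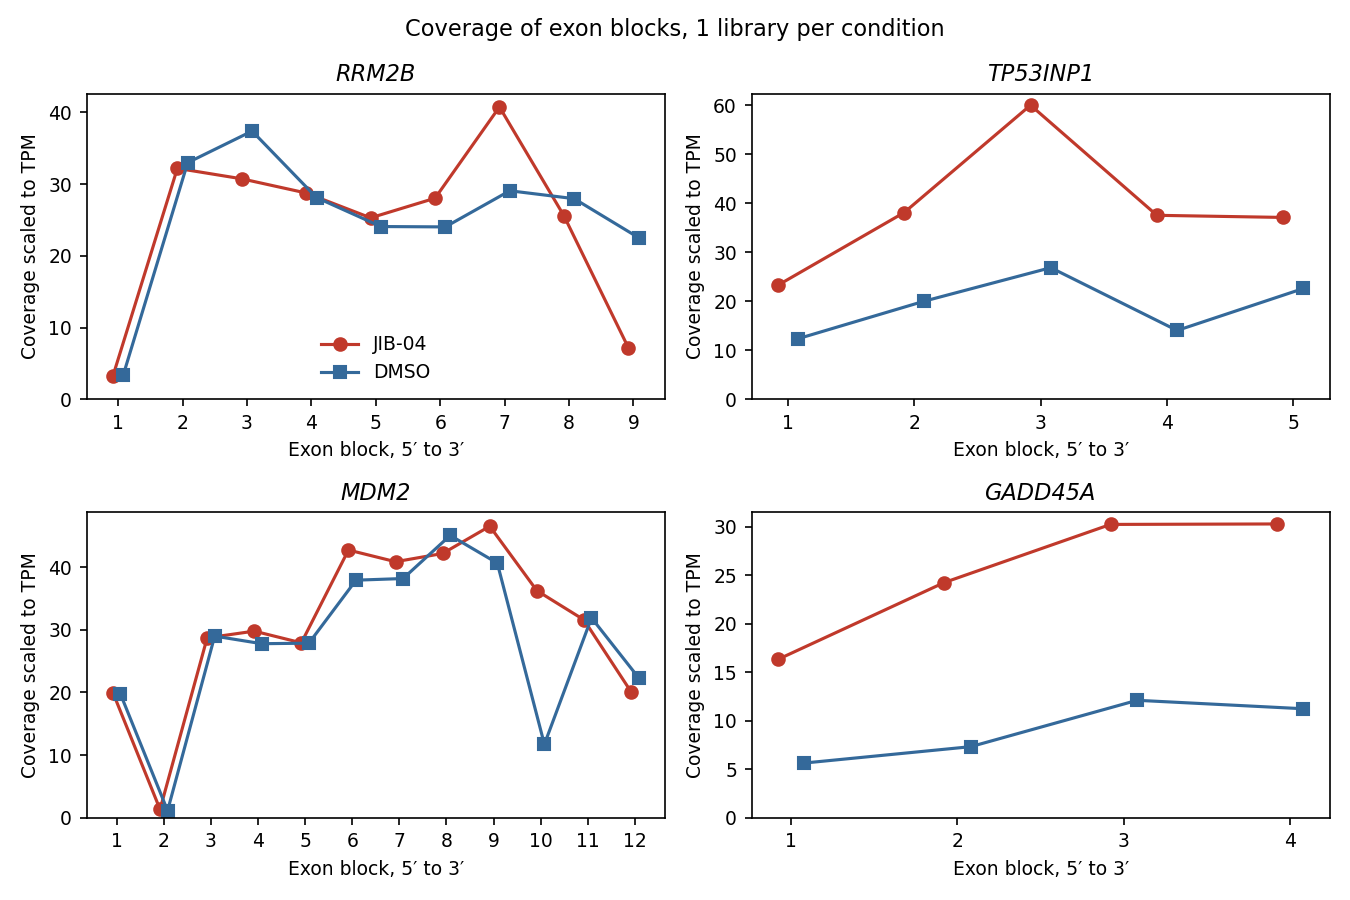
Coverage of each exon block of RRM2B, TP53INP1, MDM2 and GADD45A, scaled to TPM, in the JIB-04 library (circles) and the DMSO library (squares), with blocks numbered from the 5′ end. For RRM2B both lines ran together until the last block, which had 7.22 with JIB-04 and 22.5 with DMSO, whereas GADD45A and TP53INP1 were higher with JIB-04 in every block.

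**Figure D4:**
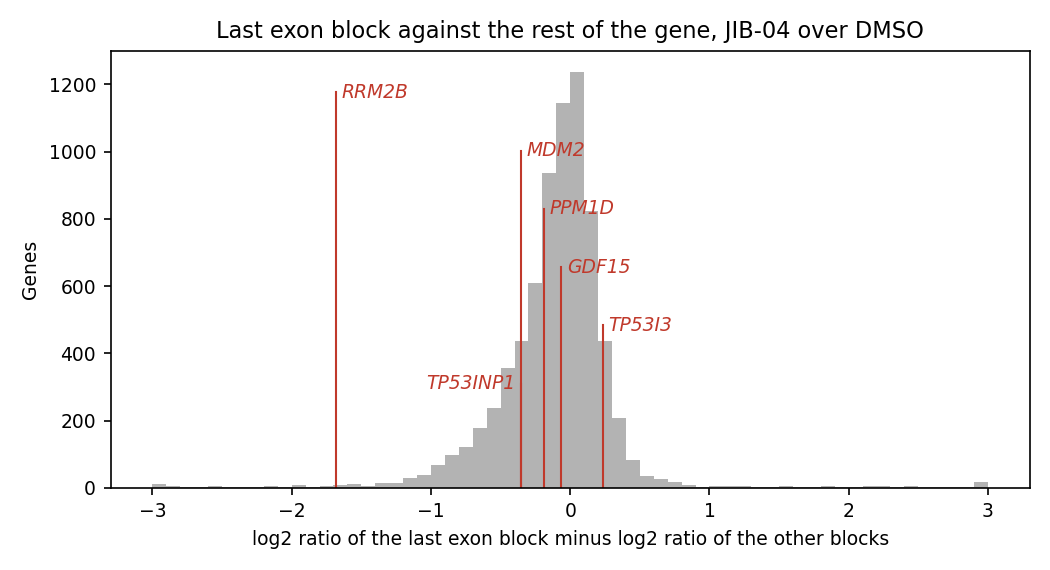
Number of genes by the log2 ratio of the last exon block minus the log2 ratio of the other blocks, JIB-04 over DMSO, for 7307 genes with enough fragments (values beyond 3 are in the end bins). Vertical lines mark the p53 targets with enough fragments, with heights set only to separate the labels, and RRM2B lay at -1.68, far to the left of the bulk of genes.

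The transcript estimates of RRM2B changed with the same reads. NM_015713 had 3.73 TPM with JIB-04 and 21.1 TPM with DMSO, NM_001172477 had 4.49 TPM with JIB-04 and 1.62 TPM with DMSO, and NM_001172478 had 3.04 TPM with JIB-04 and was listed at 0 with DMSO. These transcripts share the last block and differ at their 5′ side, where the exon coverage was similar in both libraries. Exon and transcript values are apportioned by StringTie rather than counted. A single block can also stand apart from its neighbours. The tenth block of MDM2, to which all 5 annotated transcripts contribute, had scaled coverage of 36.2 with JIB-04 and 11.7 with DMSO. The blocks on either side of it were alike in both libraries (ratios 1.14 and 0.990). The cause of this gap was not tested.

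BTG2 (Entrez 7832, hg19 chr1:203274664-203278729, plus strand), an antiproliferative protein that recruits the deadenylase complex to mRNA, had 12.2 TPM with JIB-04 and 12.7 TPM with DMSO. Its log2 ratio was -0.05 (-0.25 to 0.14), with no difference detectable at this depth. Of its relatives, BTG1 was higher, with 103.9 TPM with JIB-04 and 53.7 TPM with DMSO (log2 ratio 0.94, interval 0.87 to 1.01), while BTG3 (-0.05), TOB1 (0.22) and TOB2 (0.29) lay nearer to equality.

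ZMAT3 (Entrez 64393, hg19 chr3:178735011-178789656, minus strand), a zinc-finger RNA-binding protein that acts in splicing downstream of p53, was the lowest of the 9 genes in level. It had 3.58 TPM with JIB-04 and 5.27 TPM with DMSO, from 318 fragments with JIB-04 and 569 with DMSO, and its log2 ratio was -0.45 (-0.62 to -0.29). Most of its fragments in both libraries lay in a long last block, of 8006 bases, where the ratio was 0.650 (0.558 to 0.755). The blocks before it had a ratio of 0.892 (0.603 to 1.31) from about 49 fragments with JIB-04 and 66 with DMSO, too few to tell their ratio from that of the last block. The split between its transcripts, as StringTie apportioned them, also differed. NM_022470 had 2.37 TPM with JIB-04 and 1.90 TPM with DMSO, and NM_152240 had 1.21 TPM with JIB-04 and 3.37 TPM with DMSO. The block of 121 bases that only one transcript contains had scaled coverage of 0.07 with JIB-04 and 0.13 with DMSO. That is 0 fragments in each library after rounding, so this block gave no support for the split.

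Of the targets examined here, TP53I3, TP53INP1 and GDF15 were grouped under cell death, oxidative stress and secreted signals, and each was on the higher side. Nothing about other genes of these functions is read from them. TP53I3 (Entrez 9540, hg19 chr2:24300303-24308085, minus strand), a quinone oxidoreductase tied to reactive oxygen species in p53-induced death, had 65.4 TPM with JIB-04 and 50.4 TPM with DMSO. Its log2 ratio was 0.37 (0.25 to 0.49). As StringTie apportioned them, all of its 3 annotated transcripts were higher, but NM_147184 only slightly. NM_004881 had 31.1 TPM with JIB-04 and 20.0 TPM with DMSO. NM_147184 had 27.3 TPM with JIB-04 and 24.98 TPM with DMSO (log2 ratio 0.13). NM_001206802 had 7.0 TPM with JIB-04 and 5.44 TPM with DMSO. Of the exonic bases of TP53I3 3.93% lie opposite FAM228B on the other strand, and the file headers show that StringTie was run with a strand setting. Its distant relative CRYZ, another quinone oxidoreductase, lay on the other side, with 90.8 TPM with JIB-04 and 193.6 TPM with DMSO (log2 ratio -1.08, interval -1.16 to -1.01).

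TP53INP1 (Entrez 94241, hg19 chr8:95938200-95961615, minus strand) encodes a stress protein that promotes autophagy and the phosphorylation of p53. It had 38.1 TPM with JIB-04 and 22.4 TPM with DMSO, from 2113 fragments with JIB-04 and 1499 with DMSO, and its log2 ratio was 0.74 (0.65 to 0.84). The difference was larger before the last exon block, where the ratio was 2.10 (1.77 to 2.49), than in the last block, where it was 1.64 (1.53 to 1.76). It was also concentrated in one transcript as StringTie apportioned them, with NM_001135733 at 27.3 TPM with JIB-04 and 11.0 TPM with DMSO and NM_033285 at 10.8 TPM with JIB-04 and 11.4 TPM with DMSO. The exon of 38 bases that belongs to only one of the transcripts had about 14 fragments with JIB-04 and 6 with DMSO. Its paralog TP53INP2, which also acts in autophagy, was 2-fold higher, with 156.0 TPM with JIB-04 and 74.8 TPM with DMSO (log2 ratio 1.05, 0.99 to 1.11).

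**Figure D5:**
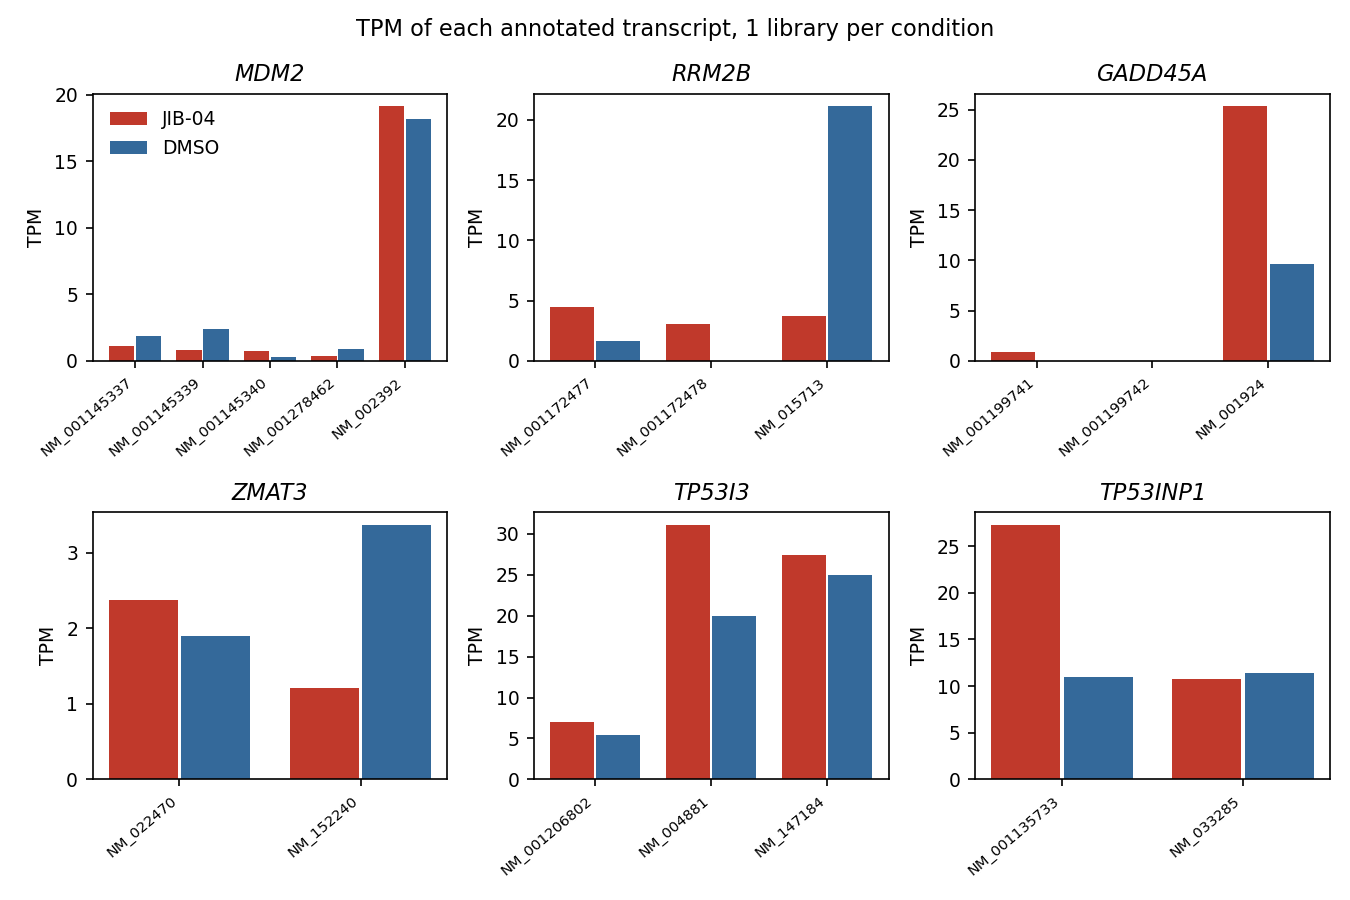
TPM of every annotated transcript of the 6 p53 targets that have more than one, with the JIB-04 bar left of the DMSO bar. In TP53INP1 and RRM2B the transcripts differed between the libraries in unlike ways, whereas the 3 transcripts of TP53I3 were all higher with JIB-04, NM_147184 only slightly. The values are as StringTie apportioned them.

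GDF15 (Entrez 9518, hg19 chr19:18496770-18499987, plus strand) encodes a secreted cytokine of the TGF-β superfamily that signals stress to the brain through the receptor GFRAL. It was by far the most abundant of the 9 genes, with 2063 TPM with JIB-04 and 861 TPM with DMSO, from 28372 fragments with JIB-04 and 14341 with DMSO. The log2 ratio was 1.26 (1.23 to 1.29), at percentile 96.3 of all genes described. In rank of abundance among all genes it stood at 38 with JIB-04 and 146 with DMSO, and it made up 0.206% of all TPM with JIB-04 and 0.0861% with DMSO. Both of its exon blocks were higher to nearly the same degree, 2.47-fold in the first and 2.37-fold in the last. Because its fragments are so many, the interval is the narrowest of the 9, but it contains no variation between cultures.

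The window around the start of GDF15 (GRCh38.p14 chr19:18385908-18386207, plus strand, RefSeq) is shown because it held the only other match among the windows of the targets. Capitals mark a stretch that matched the p53 consensus at 17 of 20 positions, 28 to 47 bases after the start.
GDF15 promoter: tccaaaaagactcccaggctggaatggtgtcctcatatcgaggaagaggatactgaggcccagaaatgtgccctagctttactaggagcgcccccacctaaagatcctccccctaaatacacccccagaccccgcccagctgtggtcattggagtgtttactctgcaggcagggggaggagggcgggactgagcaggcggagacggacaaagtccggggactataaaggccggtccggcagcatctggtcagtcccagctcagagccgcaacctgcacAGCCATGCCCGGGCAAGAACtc

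Promoter windows were at hand for 6 of the 9 genes, 10 windows in all. A match at 17 or more positions was held by 3 of them, beside 5.20% of all 34943 promoter windows. They were the GDF15 window and a pair of overlapping windows at the internal start of MDM2, so the count is small. BTG2, TP53I3, ZMAT3 and PPM1D had none in these windows, which says nothing of elements elsewhere in these genes. The best match reached 16 positions for BTG2, ZMAT3 and PPM1D and 15 for TP53I3. Of all promoter windows, 26.0% held a match at 16 or more. Of the genes with a match, GDF15 was 2.39-fold higher and MDM2 had a log2 ratio of -0.08.

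To place these genes in the wider response, 54 other p53 targets were examined, of which 49 were described. Of these, 7 passed 2-fold upward (14.3%, beside 5.99% of all genes) and 0 passed it downward (beside 6.88%), and their median log2 ratio was 0.18, beside -0.15 for all genes described. CDKN1A, which encodes the cyclin-dependent kinase inhibitor p21, had the largest ratio of the list, with 128.0 TPM with JIB-04 and 13.1 TPM with DMSO (log2 ratio 3.19, 3.03 to 3.35). SESN2, a stress-inducible inhibitor of mTORC1, had 72.1 TPM with JIB-04 and 24.7 TPM with DMSO (1.51, 1.41 to 1.61). BBC3, which encodes the pro-apoptotic protein PUMA, had 19.7 TPM with JIB-04 and 6.94 TPM with DMSO (1.39, 1.13 to 1.64). APAF1, the core of the apoptosome, had a log2 ratio of 1.17 and the small GTPase gene RAP2B one of 1.13.

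At the lower end of the same list stood genes that are usually counted among the most regular p53 targets. BAX, the pro-apoptotic pore protein, had 74.9 TPM with JIB-04 and 115.5 TPM with DMSO (log2 ratio -0.62, -0.76 to -0.48). CCNG1, cyclin G1, had 38.7 TPM with JIB-04 and 71.4 TPM with DMSO (-0.86, -0.97 to -0.75). FDXR, a mitochondrial ferredoxin reductase, had 8.04 TPM with JIB-04 and 15.9 TPM with DMSO (-0.90), the DNA damage sensor XPC had a log2 ratio of -0.67 and TRIAP1 one of -0.65. The wider list therefore also held genes on both sides of equality. FAS and SPATA18 were listed at 0 in both libraries.

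Genes that act on p53 included 0 of 20 described that passed 2-fold upward, beside 5.99% of all genes, and 1 that passed it downward (5%, beside 6.88%). The one was ATR, the kinase that senses stalled replication forks, with 5.68 TPM with JIB-04 and 14.4 TPM with DMSO (log2 ratio -1.21, -1.35 to -1.07). The other checkpoint kinases were lower by less, CHEK2 by a log2 ratio of -0.67, ATM of -0.67 and CHEK1 of -0.65. TP53BP2 and PPP1R13L, which encode the p53-binding proteins ASPP2 and iASPP, were higher, at 0.83 and 0.80. The median of these regulators was -0.09, beside -0.15 for all genes described. Of the 17 paralogs of the targets, 15 were described, 1 passed 2-fold upward (TP53INP2, 6.67%, beside 5.99% of all genes) and 1 downward (CRYZ, 6.67%, beside 6.88%), and the median of -0.16 was close to the -0.15 of all genes, so these counts lay near the background.

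Since GDF15 and GADD45A are also known targets of the integrated stress response, in which the factor ATF4 is translated when eIF2α is phosphorylated, 12 genes of that response were read beside them. All 12 were described, and 8 of them (66.7%, beside 5.99% of all genes) were at least 2-fold higher, 0 lower (beside 6.88%), with a median log2 ratio of 1.27. STC2 had 315.6 TPM with JIB-04 and 48.7 TPM with DMSO (log2 ratio 2.67), ATF3 had 143.8 TPM with JIB-04 and 31.6 TPM with DMSO (2.15), and DDIT3, which encodes CHOP, had 163.7 TPM with JIB-04 and 72.4 TPM with DMSO (1.17). ATF4 itself had 899.5 TPM with JIB-04 and 556.9 TPM with DMSO (0.69, 0.65 to 0.73). SESN2 belongs to this list as well as to the other p53 targets. The values of this response moved with those of GDF15 and GADD45A, and their part in the result was not tested.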

How the data were processed

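The authors sequenced stranded polyadenylated RNA of PLC/PRF/5 cells, with 1 library per condition. The submitters' notes list StringTie 1.3.3b, HISAT2 2.0.5 and Bowtie2 2.2.6, the read tools FastQC 0.11.5 and Trimmomatic 0.32, and the build hg19 (GRCh37). The authors deposited coverage, FPKM and TPM for each annotated RefSeq transcript and coverage for each exon, as StringTie estimated them, with no read counts. Samples were grouped by title.

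TPM was summed per gene (27685 Entrez IDs, 27559 with a symbol from RefSeq GRCh38.p14, used for names). Log2 ratios used a pseudocount of 1, and a gene was described where one of the libraries reached a TPM of 1. Calls were made at ratios of at least 2 or at most 0.5. No test was possible with 1 library per condition. The number of fragments was estimated from coverage and length at 202 bases each (2 mates of 101 bases, the commonest value among weakly covered transcripts), and intervals cover counting error only. Exon coverage was divided by the library's coverage per unit of TPM (1.99 with JIB-04 and 2.40 with DMSO), and overlapping exons of a gene were merged into blocks. The gene-level calls, and the intervals without the pseudocount, were tested on simulated fragment counts that held counting error only. That simulation says nothing of variation between cultures or of how StringTie apportions reads.

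The members, lists and alternatives were chosen with earlier results of these data known. Named genes were the 9 targets, described genes of lists of up to 21 genes, the 5 highest and 5 lowest other p53 targets with a mean TPM of at least 5, and the 3 genes nearest to the target with the largest ratio. GAPDH was named as a divisor. BTG2, TP53I3, PPM1D, ZMAT3, MDM2 and GDF15 were matched to RefSeq promoter windows of 300 bases. Python 3.11.15, numpy 2.4.6, pandas 2.3.3, SciPy 1.17.1 and matplotlib 3.10.9 were used.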

Additional observations from a re-analysis of the deposited data

How the results depend on the processing

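No paired analysis was possible because each condition had 1 library, and for the same reason no replicate could be left out. GADD45A and GDF15 remained the p53 targets at least 2-fold higher under pseudocounts of 0.1 and 5, both other filters, FPKM, and both other scalings. At 3-fold, and after division by GAPDH, whose own log2 ratio was 1.34, 0 of the 9 were higher. The count at least 2-fold lower was 1 (RRM2B) with a pseudocount of 0.1, with the most abundant transcript and at 1.5-fold, and 5 after division by GAPDH, which put the median of the 9 genes at -1.39, GDF15 at -0.078 and GADD45A at 0.02. TP53INP1 joined the higher genes at 1.5-fold and with its most abundant transcript (1.24), and RRM2B stood at -2.23 with its own. With coverage outside the last exon block, chosen after seeing the data, RRM2B stood at 0.04, TP53INP1 at 1.03 and MDM2 at 0.19. Of the other p53 targets, 13 were higher at 1.5-fold, 1 (CDKN1A) at 3-fold and 1 (CDKN1A) after division by GAPDH, beside 7. Lower were 1 (KITLG, outside the naming rule) with a pseudocount of 0.1 and with the most abundant transcript, 6 at 1.5-fold, 28 after division by GAPDH, which put their median at -1.16, and 2 (FDXR and KITLG) outside the last exon block. All genes described moved with these settings: 5.99% higher and 6.88% lower as reported became 8.03% and 9.94% with a pseudocount of 0.1, 3.04% and 2.83% with one of 5, 7.49% and 8.89% with the most abundant transcript, 12.8% and 20.97% at 1.5-fold, 2.201% and 1.07% at 3-fold, 0.657% and 79.0% after division by GAPDH, and 5.91% and 6.35% outside the last exon block. Of 90 single-gene values under these alternatives, 59 stayed within the counting interval, 30 moved beyond it and 1 changed sign from a called value. The internal first exon of MDM2, at about 0.9 fragments with JIB-04 and 1 with DMSO, was too shallow for a comparison.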

Other observations

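The genes nearest to GADD45A in the plane of mean log2(TPM + 1) and log2 ratio, over 2 libraries, were DIPK2A with 25.4 TPM with JIB-04 and 9.43 TPM with DMSO, JDP2 with 24.7 TPM with JIB-04 and 9.31 TPM with DMSO, and RSPH9 with 27.8 TPM with JIB-04 and 9.65 TPM with DMSO. With 1 library per condition this nearness is a description of these libraries. Of the 7307 genes with enough fragments, 59.6% had a lower ratio in the last exon block than in the rest of the gene. A negative difference was thus common in sign, with a median of -0.06, and RRM2B differed in its size. Such a difference does not by itself mean less last-block coverage with JIB-04. TP53INP1 stood at -0.35, and its last block was 1.64-fold higher with JIB-04.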
